A study of Mus musculus with 38 samples.

Results

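The 8 genes described here, Dpp4, Cd55, Ly6a, Cd34, Sema3c, Pi16, Ly6c1 and Anxa3, are used as markers of Dpp4-type interstitial progenitors in adipose tissue. They were taken by gene symbol from the 25746 genes of the deposited RNA tables, and all 8 were among the 15659 genes tested. Open chromatin was described within 50 kb of each gene. The study sorted cells of the Tcf21 lineage from visceral fat of mice, 5000 per library, and made 29 RNA-seq libraries in 8 groups and 9 ATAC-seq libraries in 4 groups.

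The RNA groups titled wild type (WT) were at postnatal day 12 (P12, n = 2), 3 weeks of age (3W, n = 7), 6 months of age (6M, n = 2), or had eaten high-fat diet (HFD) for 1 week (1W HFD, n = 4) or 12 weeks (12W HFD, n = 5). Those titled knockout (KO) comprised 5 libraries at 3W, 2 at 1W HFD and 2 at 12W HFD. ATAC-seq covered 3 libraries of WT 3W and 2 each of KO 3W, WT 1W HFD and WT 12W HFD. High-fat diet (Teklad TD.06414) was begun at 6 weeks of age, and P12, 3W and 6M mice had regular diet. Age and diet therefore cannot be told apart between 3W and the diet groups, or between 12W HFD and 6M. Between 1W and 12W HFD, age cannot be told apart from time on diet. The labels describe tamoxifen for all samples, by gavage at 75 mg/kg/d in adults or by injection at 100 µg/d in neonates, to activate MerCreMer, a Cre recombinase that works only with tamoxifen. The promoter that drives it, and the age at which each group was dosed, are not given in the sources used here.

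Visceral adipose tissue holds stromal progenitors in more than one state. Dpp4-type cells lie in the connective tissue around the fat lobules, proliferate, and can give rise to committed preadipocytes, which in turn become fat cells. Tcf21 is a basic helix-loop-helix transcription factor of visceral fat progenitors, and factors of this class bind E-boxes, short DNA elements of the form CANNTG.

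The sorted cells carried stromal markers throughout. The summed level of 6 stromal genes (Pdgfra, Pdgfrb, Thy1, Col1a1, Dcn and Lum) was 15886 to 30754 TPM, a transcript abundance corrected for gene length and scaled within each library, over the 8 groups. All 8 markers were present in every library, Dpp4 at P12 being lowest at 4.00 TPM. These genes are not equally specific: Cd34, Ly6a and Ly6c1 are also made by endothelial cells. In sorted bulk samples, fewer cells of a type and less RNA per cell cannot be told apart.

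The 4 start-site windows below are shown because their genes stand for the different time courses. RefSeq promoters (GRCm38.p6, the same coordinates as mm10) run from 250 bases before to 50 bases after the start site, and were found for 6 of the 8 genes, with 2 start sites for Ly6c1; none was matched for Ly6a and Anxa3. Capitals mark each match to CANNTG, which reads the same on both strands and includes the form CAGCTG. The windows lie at chr2:62412182-62412481 (Dpp4, minus strand), chr1:130462695-130462994 (Cd55, minus strand), chr15:75048788-75049087 (Ly6c1, minus strand, first site) and chr5:17574566-17574865 (Sema3c, plus strand).
Dpp4: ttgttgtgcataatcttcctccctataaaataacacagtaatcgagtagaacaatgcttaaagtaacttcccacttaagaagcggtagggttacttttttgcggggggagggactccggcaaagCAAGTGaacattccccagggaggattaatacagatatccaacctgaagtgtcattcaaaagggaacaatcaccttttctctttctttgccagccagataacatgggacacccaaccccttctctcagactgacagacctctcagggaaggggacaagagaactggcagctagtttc
Cd55: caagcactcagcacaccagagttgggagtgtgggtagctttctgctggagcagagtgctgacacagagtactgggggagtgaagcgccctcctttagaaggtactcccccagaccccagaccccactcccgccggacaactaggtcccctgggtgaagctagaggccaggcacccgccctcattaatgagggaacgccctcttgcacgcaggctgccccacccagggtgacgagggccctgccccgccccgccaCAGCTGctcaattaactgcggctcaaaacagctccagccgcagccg
Ly6c1: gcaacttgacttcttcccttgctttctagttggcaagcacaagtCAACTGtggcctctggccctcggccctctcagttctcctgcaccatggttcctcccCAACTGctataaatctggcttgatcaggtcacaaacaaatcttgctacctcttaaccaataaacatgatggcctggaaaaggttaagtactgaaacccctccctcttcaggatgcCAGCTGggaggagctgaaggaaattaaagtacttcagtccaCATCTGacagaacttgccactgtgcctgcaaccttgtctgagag
Sema3c: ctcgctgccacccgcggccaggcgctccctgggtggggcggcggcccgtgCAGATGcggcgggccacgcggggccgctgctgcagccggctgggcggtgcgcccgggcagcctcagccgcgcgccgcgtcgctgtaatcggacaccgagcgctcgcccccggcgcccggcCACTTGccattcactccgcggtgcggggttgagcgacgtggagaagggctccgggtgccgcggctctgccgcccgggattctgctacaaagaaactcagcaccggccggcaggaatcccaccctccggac

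The Dpp4 window held 1 match, which begins 126 bases before the start site. Cd55 held 1, a CAGCTG that begins 4 bases after it. Ly6c1 held 4, of which 1 was CAGCTG, and Sema3c held 2, neither of them CAGCTG. Of the genes not printed, Pi16 had 1 match, a CAGCTG, and Cd34 had 0. Among 32851 windows of the same length, 72.3% held a CANNTG and 16.3% a CAGCTG. Each of these 6 genes had an ATAC peak at its start site in all 9 libraries. In a single library 50.8% to 57.4% of the 27025 genes with a promoter entry, expressed or not, had such a peak. The share of genes with a peak in all 9 was not computed. The authors' fold enrichment of the start-site peak was 35.1 to 75.2 at Cd55 and 26.1 to 96.0 at Sema3c, in the upper part of each list, but 4.87 to 16.8 at Dpp4, whose peak stood between percentiles 19.8 and 75.4 of its list.

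By group mean 3 time courses were set apart in WT cells, a description by means alone in which traits were shared. All markers but Ly6c1 had higher means after 1W HFD and at 6M than after 12W HFD, though 0 markers passed the test of 12W HFD against 6M. Dpp4, Cd55, Anxa3, Ly6a and Ly6c1 had means above 3W in all 3 older WT groups. Of these, Ly6a and Ly6c1 had 12W HFD means nearest their 1W HFD means (1747 against 2017 TPM and 903 against 899 TPM). Cd34 and Sema3c had their lowest WT means after 12W HFD. Pi16 had its highest mean after 1W HFD and spread widely at P12, 3W and 6M.

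**Figure D1:**
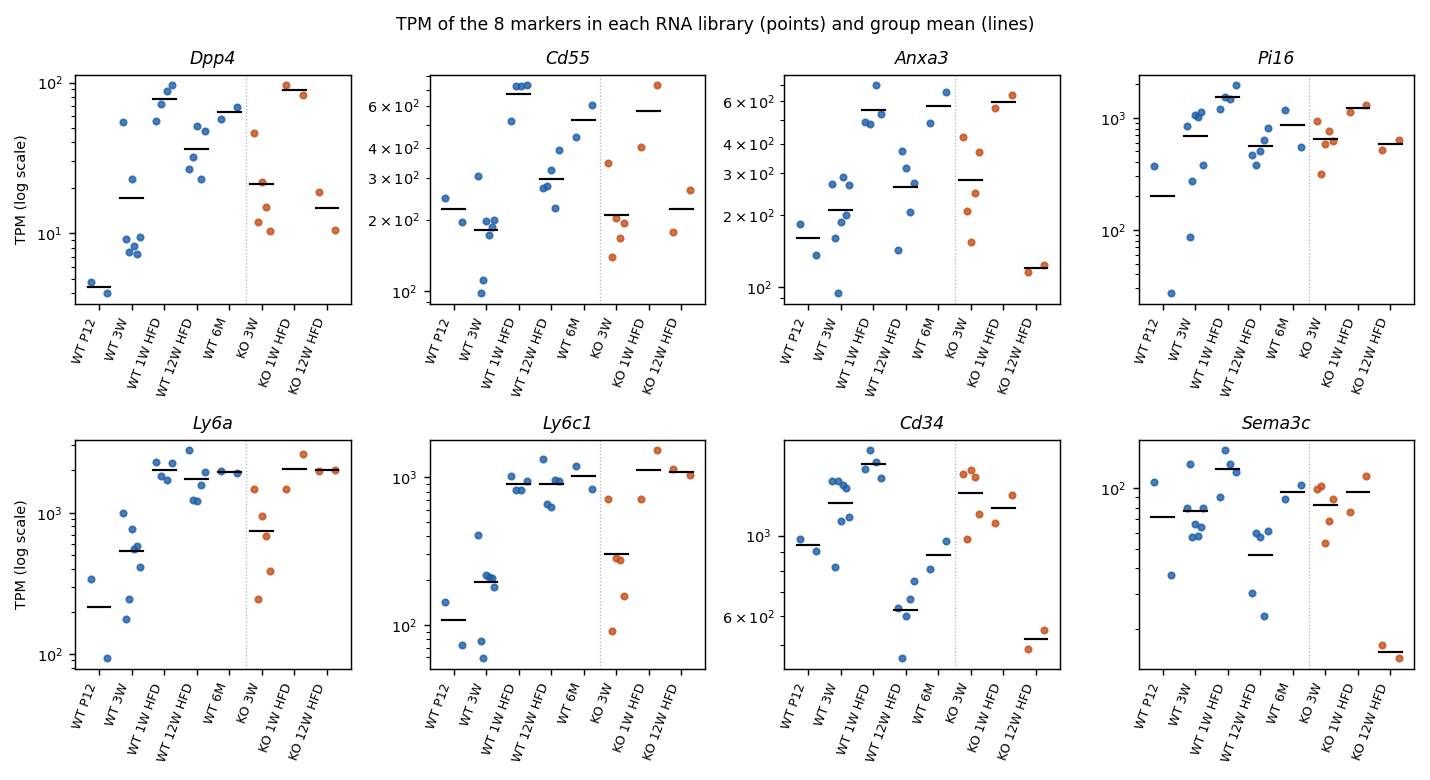
TPM of each marker in every RNA library (points, log axis) with the group mean (line), WT in blue and KO in orange. Ly6a and Ly6c1 stay high from 1W HFD on, while Cd34 and Sema3c are lowest after 12W HFD.

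Dpp4, a cell-surface peptidase that gives this progenitor state its name, was at 4.77 and 4.00 TPM at P12. At 3W the 7 WT libraries ran from 7.32 to 54.6 with a median of 9.20 TPM. It was at 55.9, 71.8, 87.9 and 95.7 TPM after 1W HFD, and every one of these lay above every 3W library. After 12W HFD it was at 26.6, 32.2, 51.3, 22.8 and 48.0 TPM, and at 6M 57.6 and 69.3 TPM. Ordered by mean TPM, the groups ran from KO 1W HFD (89.3) through WT 1W HFD (77.8) to WT 6M (63.5), whose ranges overlapped in turn. WT 12W HFD (36.2) lay apart below WT 6M, and KO 3W (21.1), WT 3W (17.0) and KO 12W HFD (14.7) followed with overlapping ranges. P12 was lowest (4.39) and lay apart.

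Between WT 3W and 1W HFD, 5 of the 8 markers rose by limma with Benjamini-Hochberg adjustment over all genes, against 4.78% of genes tested that rose. In 7 of 8 every 1W HFD library lay above every 3W library, against 3.71% of genes. The fit on the log2(TPM + 1) scale gave Dpp4 a rise of 2.49 ± 0.41 (SE; adjusted p = 0.000433). None of these 5 calls was lost when any 1 library was left out.

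Cd55, a membrane protein that speeds the decay of complement convertases, was at 98.4 to 305 TPM at 3W (median 186). After 1W HFD it was at 516, 726, 724 and 729 TPM, all above 3W, and the rise was 1.96 ± 0.26 (limma adjusted p = 3.83e-05). Anxa3, a calcium-dependent phospholipid-binding protein, was at 94.7 to 289 TPM at 3W (median 200) and at 491, 483, 703 and 531 TPM after 1W HFD, also without overlap. Its rise was 1.45 ± 0.28 (limma adjusted p = 0.00158). Pi16, a secreted peptidase inhibitor that also marks fibroblast progenitors, spread from 86.2 to 1120 TPM at 3W (median 837) and was at 1203, 1543, 1471 and 1961 TPM after 1W HFD. The ranges did not overlap, yet the change of 1.57 ± 0.56 missed the threshold (limma adjusted p = 0.0832).

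Ly6a, the GPI-anchored surface protein Sca-1, was at 178 to 996 TPM at 3W (median 552) and at 2274, 1834, 1693 and 2266 TPM after 1W HFD. Its rise was 2.11 ± 0.42 (limma adjusted p = 0.00239). Ly6c1, another GPI-anchored protein of the same family, was at 59.1 to 408 TPM at 3W (median 208) and at 1017, 816, 821 and 941 TPM after 1W HFD, a rise of 2.44 ± 0.43 (limma adjusted p = 0.000688). Both were above every 3W library. Genes of the Ly6 family share sequence, so reads could have been split between them. The closely related Ly6c2 was at 0 to 0.28 TPM at 3W and at 0.11 to 0.82 TPM after 1W HFD.

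Cd34, a sialomucin of progenitor and endothelial cells, was at 819 to 1414 TPM at 3W (median 1348) and at 1526, 1718, 1595 and 1444 TPM after 1W HFD. The ranges did not overlap, but the change was small, 0.38 ± 0.17 (limma adjusted p = 0.177). Sema3c, a secreted semaphorin, was at 57.4 to 132 TPM at 3W (median 66.1) and at 90.7, 154, 132 and 120 TPM after 1W HFD. Its ranges overlapped, and its change of 0.72 ± 0.28 missed the threshold (limma adjusted p = 0.121).

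Endothelial and macrophage markers were also higher after 1W HFD than at 3W. By the test 6 of 10 endothelial, 7 of 10 macrophage and 0 of 8 lymphocyte genes rose, where 4.78% of all genes did. In each of these lists 0 fell. The summed level of 10 endothelial genes was 39.5 to 93.6 TPM at WT 3W, where 7 of 10 had a mean of at least 1 TPM, and 148 to 438 TPM after 1W HFD, where 10 of 10 did. The sum of 10 macrophage genes was 48.5 to 90.9 TPM at 3W (7 of 10) and 218 to 338 TPM after 1W HFD (9 of 10). At 6M the endothelial sum was 66.5 and 81.8 TPM (4 of 10 genes). The macrophage sum at 6M was 1013 and 2992 TPM (10 of 10 genes). The sum of 10 lymphocyte genes was 0.63 to 6.29 TPM at 3W (1 of 10), 3.44 to 22.0 TPM after 1W HFD (2 of 10), 17.0 to 187 TPM after 12W HFD (8 of 10) and 23.8 and 96.5 TPM at 6M (7 of 10). Of the 8 lymphocyte genes tested, 7 rose from 3W to 12W HFD and 5 from 3W to 6M, where 7.94% and 4.0% of all genes did. Among the 10 macrophage genes, 10 rose from 3W to 12W HFD and 9 from 3W to 6M. The part of endothelial, macrophage and lymphocyte RNA in the markers' levels was not tested.

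After 12W HFD the set parted. Cd34 was at 633, 459, 601, 667 and 749 TPM, below every 3W library, and fell by 0.98 ± 0.16 against 3W (limma adjusted p = 3.34e-05). Ly6a was at 2773, 1239, 1209, 1579 and 1934 TPM and Ly6c1 at 1323, 659, 634, 957 and 941 TPM, all above 3W. Of the 8 markers 2 thus lay above every 3W library, against 4.55% of genes, and 1 lay below, against 3.05%. The rises were 1.85 ± 0.40 for Ly6a (limma adjusted p = 0.00135) and 2.39 ± 0.40 for Ly6c1 (limma adjusted p = 6.36e-05). Ly6c2 was at 2.5 to 27.3 TPM in this group.

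Cd55 was at 272, 278, 323, 223 and 390 TPM after 12W HFD, and its range overlapped that of 3W. Dpp4 rose by 1.37 ± 0.39 between 3W and 12W HFD (limma adjusted p = 0.0145) and Cd55 by 0.77 ± 0.24 (limma adjusted p = 0.0275). In all, 4 of 8 markers rose and 1 fell, against 7.94% of genes that rose and 6.23% that fell. The Cd55 call was lost without WT 3W replicate 2 (limma adjusted p = 0.0665) or replicate 3 (0.0677), and without WT 12W HFD replicate 3 (0.0657) or replicate 5 (0.0907). The Dpp4 call was lost without WT 12W HFD replicate 3 (limma adjusted p = 0.0513). Sema3c was at 30.2, 60.0, 57.5, 23.3 and 61.1 TPM and missed the threshold at -0.76 ± 0.26 (limma adjusted p = 0.0523). It passed without WT 3W replicate 3 (limma adjusted p = 0.0484) or 5 (0.0470), and without WT 12W HFD replicate 2 (0.0391), 3 (0.0442) or 5 (0.0359). Pi16 and Anxa3 did not pass, at 0.07 ± 0.52 (limma adjusted p = 0.954) and 0.33 ± 0.26 (limma adjusted p = 0.479).

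**Figure D2:**
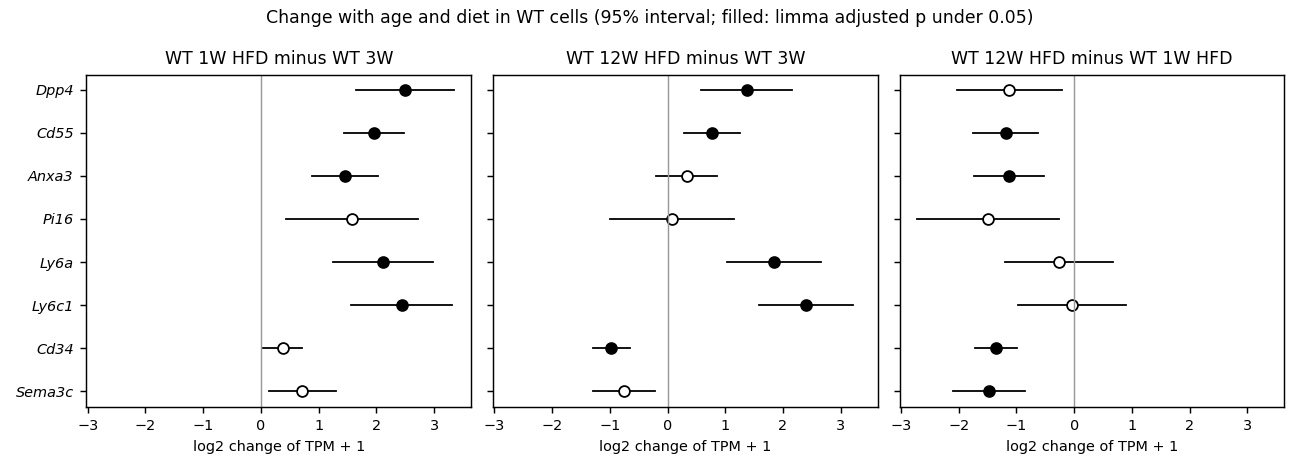
Change of each marker in WT cells on the log2(TPM + 1) scale (points, with the 95% interval), with filled points at a limma adjusted p under 0.05. From 1W to 12W HFD, Ly6a and Ly6c1 lie near 0 at -0.27 and -0.04, and the other 6 markers lie below -1.

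Compared with 1W HFD, 4 of 8 markers fell by 12W HFD, against 2.39% of genes tested that fell. Of the genes called in this comparison 59.7% were higher, and 70.6% with median-ratio scaling. Every 12W HFD library lay below every 1W HFD library for 6 of 8, against 5.58% of genes. Cd34 fell by 1.35 ± 0.18 (limma adjusted p = 7.55e-06), Sema3c by 1.48 ± 0.30 (limma adjusted p = 0.00187) and Cd55 by 1.19 ± 0.27 (limma adjusted p = 0.00605). Anxa3 was at 144, 374, 315, 207 and 274 TPM after 12W HFD, a fall of 1.13 ± 0.30 (limma adjusted p = 0.0193). This call was lost without WT 1W HFD replicate 3 (limma adjusted p = 0.0823) or without WT 12W HFD replicate 1 (0.0748). The Pi16 libraries were at 465, 379, 505, 635 and 805 TPM, all below 1W HFD, but its change of -1.50 ± 0.60 did not pass (limma adjusted p = 0.157). Dpp4, at -1.12 ± 0.44, did not pass either (limma adjusted p = 0.148). Both passed when these 2 groups were fitted alone, with a limma adjusted p of 0.0406 for Dpp4 and 0.00665 for Pi16. Ly6a and Ly6c1 did not pass, with 95% intervals of -1.20 to 0.66 and -0.98 to 0.90 for the change. The macrophage sum was 1878 to 3697 TPM after 12W HFD (10 of 10 genes) and the endothelial sum 48.3 to 239 TPM (9 of 10). The part of macrophage and endothelial RNA in the changes between 1W and 12W HFD was not tested.

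At 6M, on regular diet, 5 of 8 markers were above 3W by the test, against 4.0% of genes that rose. Dpp4 rose by 2.22 ± 0.53 (limma adjusted p = 0.00657), Cd55 by 1.59 ± 0.33 (limma adjusted p = 0.00178), Ly6a by 2.08 ± 0.54 (limma adjusted p = 0.0128), Ly6c1 by 2.60 ± 0.55 (limma adjusted p = 0.0024) and Anxa3 by 1.51 ± 0.36 (limma adjusted p = 0.00621). Cd55 was at 444 and 604 TPM, Anxa3 at 487 and 659 TPM, Ly6a at 1989 and 1926 TPM and Ly6c1 at 1203 and 830 TPM. All of these lay above every 3W library. With Dpp4 this held for 5 of 8 markers, against 5.43% of genes, while 0 of 8 lay below every 3W library, against 11.9%. Sema3c (87.9 and 103 TPM), Pi16 (1165 and 544 TPM) and Cd34 (806 and 964 TPM) overlapped 3W and did not pass. The group has 2 libraries, and 2 markers stayed past the threshold without replicate 1 and 1 without replicate 2. Scaling by median ratios moved the median change of all genes by 0.21 and the calls from 626 genes higher and 1073 lower to 1006 higher and 565 lower, and left 5 markers called. Fitting 3W and 6M alone left 2 called.

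After 12W HFD against 6M, 0 of 8 markers passed, against 0.881% of genes in either direction (79.7% of these higher, and 57.1% with median-ratio scaling, which moved the median of all genes by -0.16). Of the 8, 4 had an unadjusted p under 0.05, as did 2189 of all genes tested (14%). Changes above 0 were 0 of 8 (median -0.69), against 67.7% of all genes (median 0.22). For Dpp4, Cd55, Cd34, Sema3c and Anxa3 every 12W HFD library lay below the 2 at 6M, 5 of 8 markers against 4.24% of genes. Anxa3 differed by -1.18 ± 0.37 (limma adjusted p = 0.115) and Sema3c by -1.13 ± 0.38 (limma adjusted p = 0.149).

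From P12 to 3W also 0 of 8 passed, against 1.63% of genes, with 3 of 8 at an unadjusted p under 0.05, as were 2228 of all genes tested (14.2%). Pi16 was at 373 and 27.2 TPM at P12, and its change of 2.32 ± 0.71 missed the threshold (limma adjusted p = 0.0996). It passed without P12 replicate 1 (limma adjusted p = 0.00558) or WT 3W replicate 2 (0.0118). Ly6a was at 338 and 93.1 TPM at P12, a change of 1.37 ± 0.54 (limma adjusted p = 0.227), and Dpp4 changed by 1.35 ± 0.53 (limma adjusted p = 0.22). The endothelial sum was 284 and 600 TPM at P12 (10 of 10 genes). By the test 5 of 10 endothelial genes fell from P12 to 3W and 0 rose, where 1% of all genes fell. The part of endothelial RNA in the P12 levels was not tested.

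Other genes used as Dpp4-type markers were read from a list of 17. From 3W to 1W HFD 10 rose, where 4.78% of all genes did, and 0 fell, with a median change of 1.42 against 0.02 over all genes. Dact2, which modulates Wnt and TGF-beta signalling, went from a mean of 1.05 to 14.9 TPM (2.78 ± 0.53, limma adjusted p = 0.00165). The mitochondrial calcium-binding gene Efhd1 went from 30.3 to 136 TPM (2.63 ± 0.54, limma adjusted p = 0.00294), and the ubiquitin hydrolase Uchl1 from 5.09 to 37.2 TPM (2.63 ± 0.45, limma adjusted p = 0.000587). Bmp7, a secreted ligand, rose by 1.94 ± 0.46 (limma adjusted p = 0.00855). From 1W to 12W HFD 6 of the 17 fell, where 2.39% of all genes did, and 0 rose, led by Bmp7, from 8.13 to 0.65 TPM (-2.63 ± 0.49, limma adjusted p = 0.000698), with Dact2 (-1.98), Efhd1 (-1.95) and Creb5 (-1.50). From 3W to 12W HFD 2 of the 17 rose, Uchl1 (2.02) and Cd9 (1.39), and 1, Igfbp6, fell (-0.69), counts near the 7.94% and 6.23% of all genes. At 6M 5 of the 17 were above 3W, where 4.0% of all genes were.

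A list of 12 genes of committed preadipocytes was read beside it. From 3W to 1W HFD 0 rose and 2 fell, where 4.78% of all genes rose and 3.25% fell. Dlk1, an inhibitor of adipogenesis, fell from 202 to 3.44 TPM (-5.38 ± 0.36, limma adjusted p = 1.67e-10), and the lipid carrier Apoe by 1.51 ± 0.46 (limma adjusted p = 0.0416). From 3W to 12W HFD 2 of the 12 rose and 1 fell, where 7.94% of all genes rose and 6.23% fell. The fatty acid transporter Cd36 rose by 3.01 ± 0.50 (limma adjusted p = 5.76e-05) and the chemokine Cxcl14 by 2.15 ± 0.59 (limma adjusted p = 0.012), and Dlk1 fell by 6.75 ± 0.34 (limma adjusted p = 9.15e-14). Cd36 is also made by macrophages and endothelial cells, whose sums are given above.

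In the KO libraries Tcf21 was read first. At 3W it was at 20.0, 60.9, 21.9, 48.2 and 25.1 TPM in KO and at 37.6 to 109 TPM in WT (median 47.6), a difference of -0.91 ± 0.35 (limma adjusted p = 1). Titles at 3W give pair numbers, and in each of the 5 pairs the KO library had less Tcf21 than its WT partner, between 46.0% and 57.5% of that level. After 1W HFD the KO libraries were at 8.10 and 16.4 TPM and the WT libraries at 13.6, 47.4, 11.3 and 20.0 TPM. After 12W HFD they were at 5.67 and 1.64 TPM in KO, with WT at 5.86 to 13.5 TPM. Means were lower in KO at each time without passing the unpaired test. The deleted part is not given, so reads outside it could still count. The genotype field of the labels differed from the title in 22 of 38 samples, and KO and WT here follow the titles.

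None of the 8 markers differed between KO and WT by the test at any of the 3 times. At 3W that was 0 of 8 against 0.0% of genes tested, after 1W HFD 0 of 8 against 0.0255%, and after 12W HFD 0 of 8 against 0.00639%. At an unadjusted p under 0.05 there were 0, 0 and 3 of 8 markers, against 546 (3.49%), 540 (3.45%) and 570 (3.64%) of all genes tested. At 3W all 8 differences were above 0 (median 0.32, against 0.01 over all genes), as were 51.45% of all genes. After 1W HFD 3 of 8 were above 0 (median -0.16) and after 12W HFD 3 of 8 (median -0.34). The shares of all genes above 0 were 49.26% and 47.58%. The 8 signs come from the same libraries, and several markers vary together, so the signs are not independent.

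The KO differences at 12W HFD were largest in Sema3c, Dpp4 and Anxa3, each with both KO libraries below all 5 WT libraries, a pattern of 5.22% of genes. Sema3c was at 16.6 and 14.3 TPM in KO, a difference of -1.43 ± 0.38 (limma adjusted p = 0.54), which passed only with array weights (limma adjusted p = 0.0472). Dpp4 was at 18.9 and 10.6 TPM (-1.23 ± 0.55, limma adjusted p = 1) and Anxa3 at 116 and 124 TPM (-1.05 ± 0.37, limma adjusted p = 1). With 2 KO libraries the 95% interval for Sema3c ran from -2.20 to -0.65, and for Ly6c1 from -0.85 to 1.49, which holds both 0 and a change of over 2-fold. In the same comparison all but 1 of 10 macrophage genes lay below 0 (median -0.72) and all 8 lymphocyte genes tested did (median -0.80), with 0 called in either list and 3 lymphocyte genes at an unadjusted p under 0.05. The macrophage sum was 1410 and 4563 TPM in KO, of which the gene Lyz2 made up 736 and 3549 TPM. After 1W HFD 7 of 8 mesothelial genes lay above 0 in KO (median 2.21), 1 of them called, Lrrn4, and 5 had an unadjusted p under 0.05. Their sum was 94.6 and 177 TPM in KO and 80.3 to 123 TPM in WT, most of it Wt1 (67.9 and 78.0 TPM in KO, 79.2 to 112 TPM in WT), while Msln had a mean of 13.1 TPM in KO and 0.53 TPM in WT. The part of other cells in these differences was not tested.

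**Figure D3:**
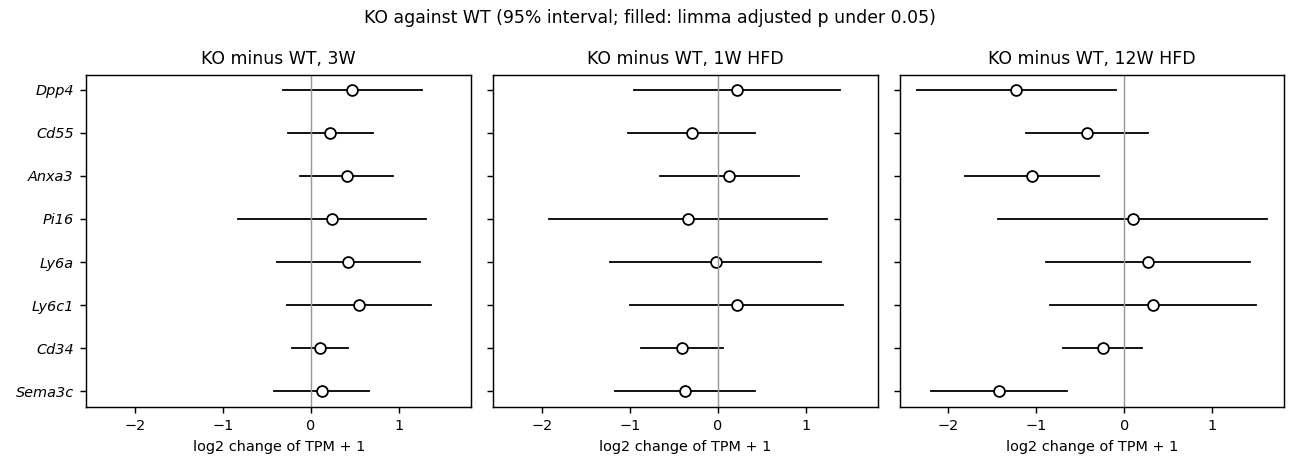
KO minus WT for each marker on the log2(TPM + 1) scale (points, with the 95% interval) at 3W, 1W HFD and 12W HFD. No point is filled, since 0 of 8 passed at each time; Sema3c at 12W HFD lies lowest at -1.43.

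Whether the change over time differed between KO and WT was tested as such. For 12W HFD against 3W 0 of 8 passed, against 0.0% of genes, and all 8 differences in change were below 0. They were -1.70 ± 0.67 for Dpp4, -1.55 ± 0.46 for Sema3c and -1.45 ± 0.45 for Anxa3, each with a limma adjusted p of 1. For 1W HFD against 3W 0 of 8 passed, against 0.00639% of genes, and for 12W HFD against 1W HFD 0 of 8, against 0.0128%. All 8 differences in the change from 3W to 1W HFD were also below 0 (median -0.47), and both sets share the 3W libraries. Over all genes 47.9% of the differences in change were above 0 for 12W HFD against 3W and 50.1% for 1W HFD against 3W.

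Within KO, Dpp4 went from 46.4, 11.8, 22.0, 14.9 and 10.3 TPM at 3W to 96.4 and 82.1 TPM after 1W HFD (2.24 ± 0.55, limma adjusted p = 0.0471). Cd55 was at 139 to 346 TPM at KO 3W and at 403 and 733 TPM after 1W HFD (1.44 ± 0.34, limma adjusted p = 0.0386). These 2 of 8 markers, against 0.428% of genes, were lost without either KO 1W HFD library and without any of KO 3W replicates 2 to 5. From 3W to 12W HFD in KO, Ly6c1 rose (2.18 ± 0.57, limma adjusted p = 0.019), 1 of 8 against 3.19% of genes, a call lost without KO 3W replicate 2 (limma adjusted p = 0.0511) or either KO 12W HFD library (0.165 and 0.174). In KO after 12W HFD, Cd34 was at 487 and 548 TPM. Cd34 (-1.32 ± 0.22, limma adjusted p = 0.000208) and Sema3c (-2.31 ± 0.38, limma adjusted p = 0.000156) fell, 2 of 8 against 1.96%. From 1W to 12W HFD, Cd34 (-1.19 ± 0.27, limma adjusted p = 0.0259), Sema3c (-2.53 ± 0.45, limma adjusted p = 0.00463) and Anxa3 (-2.31 ± 0.44, limma adjusted p = 0.00701) fell, 3 of 8 against 0.268% of genes. Of all calls there 64.7% were higher, and 76.4% with median-ratio scaling. Without any one of the 4 libraries at most 1 of these 3 calls was left.

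The markers varied within a group as well as between groups. WT 3W replicate 1 was highest of its group in Dpp4 (54.6), Cd55 (305), Ly6a (996) and Ly6c1 (408 TPM), and KO 3W replicate 1 was highest of its own in the same 4, with Dpp4 at 46.4 and Ly6c1 at 710 TPM. Both carry pair number 1 in their titles. Each also had the fewest genes at 1 TPM or above in its group, 10894 in WT and 12005 in KO. Whether this bears on the marker levels was not tested. Over the 29 libraries, which share groups, Pearson's r was 0.97 between Ly6a and Ly6c1, 0.84 between Dpp4 and Cd55, and -0.16 between Sema3c and Ly6c1, on log2(TPM + 1). The non-marker genes with the highest r were Lurap1l (0.90) for Dpp4, Efhd1 (0.91) for Cd55, Pla1a (0.96) for Ly6a and Arpc1b (0.95) for Ly6c1. Adamtsl4 (0.88) was nearest Cd34, Stxbp6 (0.86) Sema3c, Tnxb (0.90) Pi16 and Pcsk6 (0.88) Anxa3.

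ATAC-seq, which tags open chromatin with a transposase, gave a list of peaks for each library, and peaks that shared bases across lists were merged into regions. Near the 8 markers lay 119 distinct regions with a median length of 1628 bases, against 1351 bases over all 123191 regions. The Ly6a and Ly6c1 windows overlap, and windows reach into other genes. Of the 119 regions 38 (31.9%) were open in all 9 libraries, as were 35759 of all 123191. The lists were of unequal length, 55990 to 93314 peaks over 75.6 to 172.6 Mb, with the most bases in a 1W HFD library (172.6 Mb), so the presence of a peak is a description and was not tested.

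Open in both 1W HFD libraries and in neither 12W HFD library were 16 of the 119 regions, against 2.73% of all regions. Cd55 had 8 of them, Sema3c 5, Anxa3 2 and Pi16 1. Dpp4, Ly6a, Cd34 and Ly6c1 had none. In the reverse pattern, 12W HFD and no 1W HFD, there were 0, against 3.98%.

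At Cd55 these 8 regions ran along the gene body and beyond both ends. The longest, at chr1:130450148-130455947, was 5800 bases and open in 3 libraries, both 1W HFD libraries and 1 other. The region at chr1:130441809-130445177, 3369 bases within the gene, was open only in the 2 libraries of 1W HFD. At Sema3c the regions at chr5:17596398-17597688, inside the gene, and chr5:17731030-17732658, beyond its end, belonged to the same set. Of the 4 markers whose RNA fell from 1W to 12W HFD, Cd55, Sema3c and Anxa3 had such regions and Cd34 had 0. The start-site peaks of Cd55 and Sema3c were present in all 9 libraries.

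**Figure D4:**
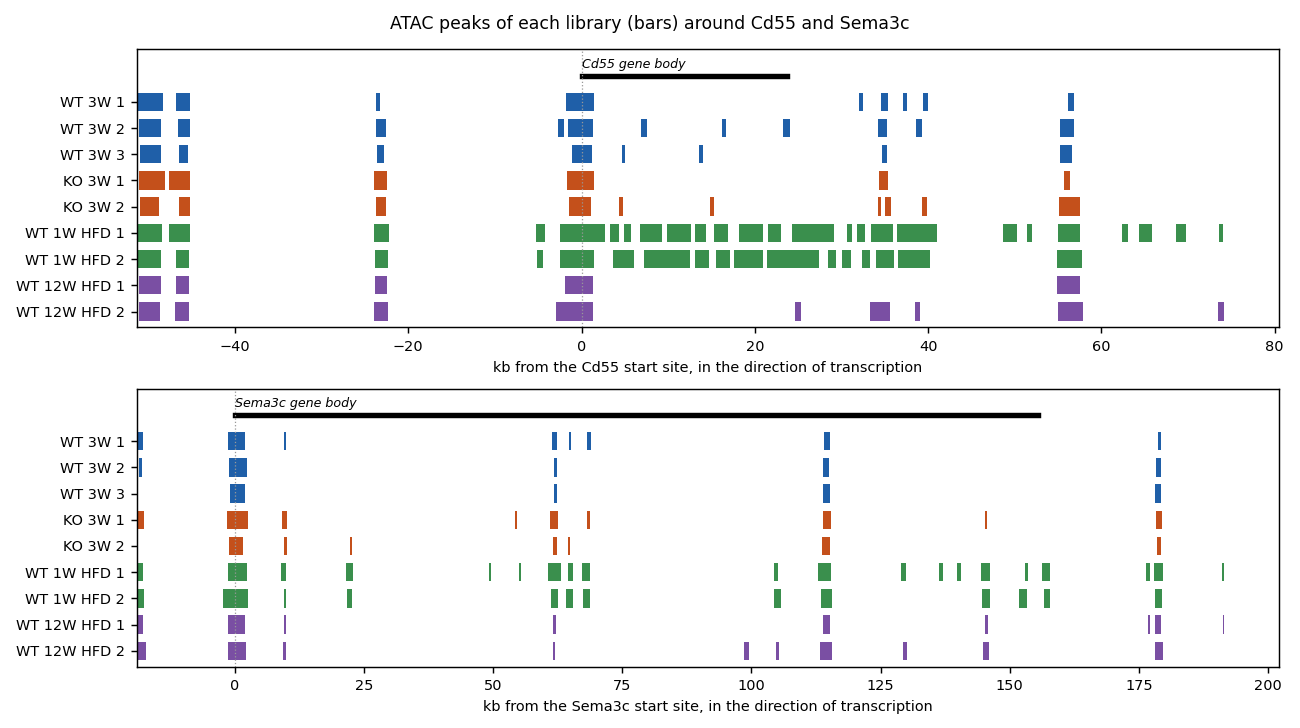
Peaks of each ATAC-seq library (bars) by distance in kb from the start site of Cd55 and of Sema3c, with the gene body as a black line. The start-site peak is in all 9 libraries, and 1W HFD libraries hold 8 regions near Cd55 and 5 near Sema3c that no 12W HFD library has.

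Open in both 1W HFD libraries and in no WT 3W library were 19 of the 119 regions, against 6.68% of all regions, among them 5 at Sema3c and 3 each at Dpp4, Cd55 and Anxa3. With peaks at a −log10 q of at least 5 alone this was 9 of 84 (10.7%), against 7.38% of all. Peak names begin with A in all HFD lists but with B in WT 3W replicates 2 and 3, and the letter is not explained. Read against the only WT 3W list with the letter A, 26 of 119 regions were open after 1W HFD and not there, against 9.23% of all, a reading added after the data were seen. Open in both 12W HFD libraries and in no WT 3W library were 7, against 9.72%. Lost by 12W HFD (open in all WT 3W, in no 12W HFD library) were 0, against 0.614%.

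Between KO and WT at 3W, 1 of the 119 regions was open in both KO libraries and in no WT 3W library, near Anxa3 at chr5:96870788-96871812, against 2.98% of all regions. Open in all WT 3W libraries and in no KO library were 0, against 0.0503%.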

How the data were processed

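RNA-seq (29 libraries) and ATAC-seq (9 libraries) of sorted Tcf21 lineage cells were read from the authors' deposited files. RNA values are TPM per gene, deposited in 1 table of WT and 1 of KO libraries; columns summed to 918008 to 969385, and depth is unknown. Peak lists, 1 per library, hold the authors' deposited score, signal as ratio to background (fold enrichment), −log10 p and −log10 q. Per the submitters' processing notes, MACS2, Bowtie2 2.3, RSEM, STAR 2.5.3a, FastQC, Trim Galore 0.6 and mm10 were used; for roles, strand and settings no statement is given in the sources used here. Titles set the groups. No label says that replicates come from different mice, so p-values measure the spread between libraries, which may be technical.

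The 15659 genes that reached 1 TPM in 2 or more libraries were fitted as log2(TPM + 1) with limma 3.58.1 in R 4.3.3, 8 group means, eBayes with a trend, 21 residual degrees of freedom. Tests were two-sided, adjusted over all genes, threshold 0.05; the pseudocount of 1 understates changes of low genes. The script was tested on simulated data. Regions were merged with bedtools 2.31.1. Named genes were the 8 markers, for each the nearest genes by Pearson r, and up to 4 per list and comparison with the largest passing change. The markers and lists were chosen with earlier results of these data known. Alternatives were another pseudocount (0.1), no filter, other scalings, array weights, the compared groups alone, a replicate block and leaving out each library. For peaks they were a −log10 q of at least 5, 25 kb windows and 100 shared bases.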

Additional observations from a re-analysis of the deposited data

Results flagged for a closer look

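Of 32 sets of values (8 markers in 4 groups of 4 to 7 libraries) 2 held a library far from the others by Dixon's criterion, where chance gives about 1 in 20. Cd55 in WT 1W HFD replicate 1 was lowest of its group at 515.91 TPM, with the other 3 at 724 to 729 TPM. Sema3c in WT 3W replicate 2 was highest of its group at 131.73 TPM.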

How the results depend on the processing

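Array weights called 1 marker for KO against WT after 12W HFD (0 without), 5 for KO 12W HFD against 3W (3) and 5 for KO 12W HFD against 1W HFD (3). Fitting the compared groups alone called 2 for WT 6M against 3W (5), 3 for WT 12W HFD against 3W (5), 0 for KO 1W HFD against 3W (2) and 0 for KO 12W HFD against 1W HFD (3). KO 1W HFD against 3W gave 1 with a pseudocount of 0.1, 0 with no filter and 1 with median-ratio scaling. Leaving out 1 library gave 0 to 1 markers for WT 3W against P12, 1 to 5 for WT 6M against 3W, 0 to 3 for KO 1W HFD against 3W and 0 to 1 for KO 12W HFD against 1W HFD; a lone library left in a group was assumed to vary like the others. The cause of these moves was not tested.

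Direction turned only in values that passed no test. Array weights gave Pi16 -0.10 (KO against WT, 3W) and -0.24 (WT 12W HFD against 3W) and Ly6a 0.0028 (KO against WT, 1W HFD), and median-ratio scaling gave Ly6c1 0.080 (WT 12W against 1W HFD). Leaving out 1 library, the change ran from -0.19 to 0.48 for Pi16 (KO against WT, 3W), -0.72 to 0.14 for Cd55, -0.44 to 0.39 for Ly6a and -0.33 to 0.77 for Ly6c1 (KO against WT, 1W HFD), -0.052 to 0.24 for Pi16 (KO against WT, 12W HFD), -0.35 to 0.26 for Pi16 (WT 12W HFD against 3W) and -0.19 to 0.073 for Ly6c1 (WT 12W against 1W HFD). Of 1129 values of single markers under alternatives, 1042 kept direction and call. They belong to 72 results of a marker in a comparison, not to every marker in every comparison.

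A replicate block used pair numbers at 3W and replicate numbers after 1W and 12W HFD. With it 0 markers and 0 of all genes were called for KO against WT at each time. A fit that calls 0 genes cannot tell the markers from other genes, and the titles give no pairs after 1W and 12W HFD. At 3W the block gave Tcf21 -0.90 ± 0.09 (limma adjusted p = 0.316, unadjusted 2.02e-05), a fit added after the data were seen, and called 0 genes. Of 6 same-pair correlations of deviations 5 were above 0.1 (lowest -0.13, highest 0.48).

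Over all genes, fitting the compared groups alone moved calls from 1257 to 730 (WT 1W HFD against 3W), 1699 to 686 (WT 6M against 3W), 255 to 59 (WT 3W against P12), 138 to 0 (WT 12W HFD against 6M), 135 to 49 (KO 1W HFD against 3W), 806 to 535 (KO 12W HFD against 3W) and 119 to 0 (KO 12W against 1W HFD). Array weights gave 1937 (WT 1W HFD against 3W), 43 (WT 3W against P12), 1882 against 928 (WT 12W against 1W HFD), 341 (KO 1W HFD against 3W), 1409 (KO 12W HFD against 3W) and 261 (KO 12W against 1W HFD). A pseudocount of 0.1 gave 90 (12W HFD against 6M) and 76 (KO 12W against 1W HFD). KO against WT moved from 4 to 11 with no filter and 15 with groups alone (1W HFD), and from 1 to 22 with no filter, 5 with median ratios and 8 with array weights (12W HFD). Differences in change moved from 1, 0 and 2 genes to 8, 9 and 14 with no filter, and from 1 to 8 with groups alone (1W HFD against 3W). With −log10 q of at least 5, 7 of 84 regions near the markers were open in both 1W and no 12W HFD libraries, against 3.0% of all, a reading added after the data were seen. The depth of the RNA libraries is unknown, so no counting limit was computed.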
